A study of Rattus norvegicus with 16 samples.

Results

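The proteasome subunit genes were followed in the retinae of newborn rats raised in cyclic hyperoxia or in room air. Members were the probe sets with 1 annotated symbol that starts with Psma, Psmb, Psmc or Psmd, and Sem1. Of several probe sets of a gene, the one with the highest mean over the 16 arrays was taken. This gave 40 genes out of 14324 measured, from 44 probe sets, with 2 probe sets each for Psma6, Psmb6, Psmc4 and Psmd8. By role they were 6 alpha subunits and 8 beta subunits of the core and 3 immunoproteasome subunits. The regulatory particle had 6 ATPases, 12 other subunits and 3 assembly chaperones. The other 2, Psmc3ip and the Psma3-like gene Psma3l, matched the prefix and are given apart. Psma3 lay only on a probe set shared with Psma3l, which the rule leaves out, and Psma8 was not measured.

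The 26S proteasome degrades proteins that carry ubiquitin chains. Its core particle is a barrel of stacked rings, with alpha subunits that form the gate at each end and beta subunits inside, of which Psmb5, Psmb6 and Psmb7 hold the catalytic sites. The regulatory particle on the barrel's ends binds and unfolds substrates: the Psmc subunits form its ATPase ring, and the Psmd subunits and Sem1 bind ubiquitin, remove it and hold the lid together. In immune cells and under interferon, Psmb8, Psmb9 and Psmb10 take the places of the catalytic subunits and shape the peptides that are presented on MHC class I molecules.

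The series combined 2 rat strains with 2 exposures and 2 ages in 8 groups of 2 arrays each. The groups were Sprague Dawley (SD) rats in cyclic hyperoxia on post-natal day 6, SD in room air on day 6, Fischer 344 (F344) in cyclic hyperoxia on day 6, F344 in room air on day 6, and the same 4 groups on day 5. Cyclic hyperoxia meant 24 hours at 80% oxygen alternating with 24 hours at 21% oxygen, started within 12 hours of birth and kept up to sampling; the control litters stayed in room air. It is a model of oxygen-induced retinopathy, and the design set a susceptible strain beside a resistant one. The labels do not say which phase of the cycle preceded sampling. With phases of 24 hours, days 5 and 6 would follow different phases. Comparisons of the days in hyperoxia therefore cannot tell age from oxygen phase. Each array carried RNA pooled from single rats, so that the p values below measure the spread between pools. The study's design text names 3 rats and 2 litters for the pools without saying whether for each pool or for the pair.

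Values were log2 expression, on which a difference of 1 is a fold of 2, and their precision is set by how few arrays each group has. The pairs of arrays of a group correlated at 0.9869 to 0.9965 over all genes. The pair of F344 hyperoxia day 6 stood apart, with 70 genes over 2-fold different between its arrays against 0 to 34 in the other pairs; the second of these arrays held the series' highest level of several members, Sem1, Psma6 and Psmb3 among them. Of 15 measured markers of the retina, Crx, Pax6 and Neurod1 were high, with means of 10.77, 11.03 and 11.77. No lens marker had a mean above 5.11, and no T cell or B cell marker one above 5.31. The log2 of the summed level of 7 pigment epithelium markers ran from 9.12 to 10.33 over the arrays. It was 9.37 and 10.06 on the SD room air arrays of day 6.

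On day 6, averaged over both strains, 19 of 40 members were called higher after cyclic hyperoxia and 0 lower, by limma at an adjusted p under 0.05, where 4.01% of all genes were called higher. The median log2 change of the members was 0.32, against -0.01 over all genes, and 37 of 40 members had a positive change. Both hyperoxia arrays lay above both room air arrays in each strain for 26 members, a pattern that 8.49% of all genes showed. The heat map of all members shows the rise as a block across core and regulatory genes, with pale rows for Psmb8, Psmb11, Psmd1 and Psmd11 and a scattered row for Psmd2.

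**Figure D1:**
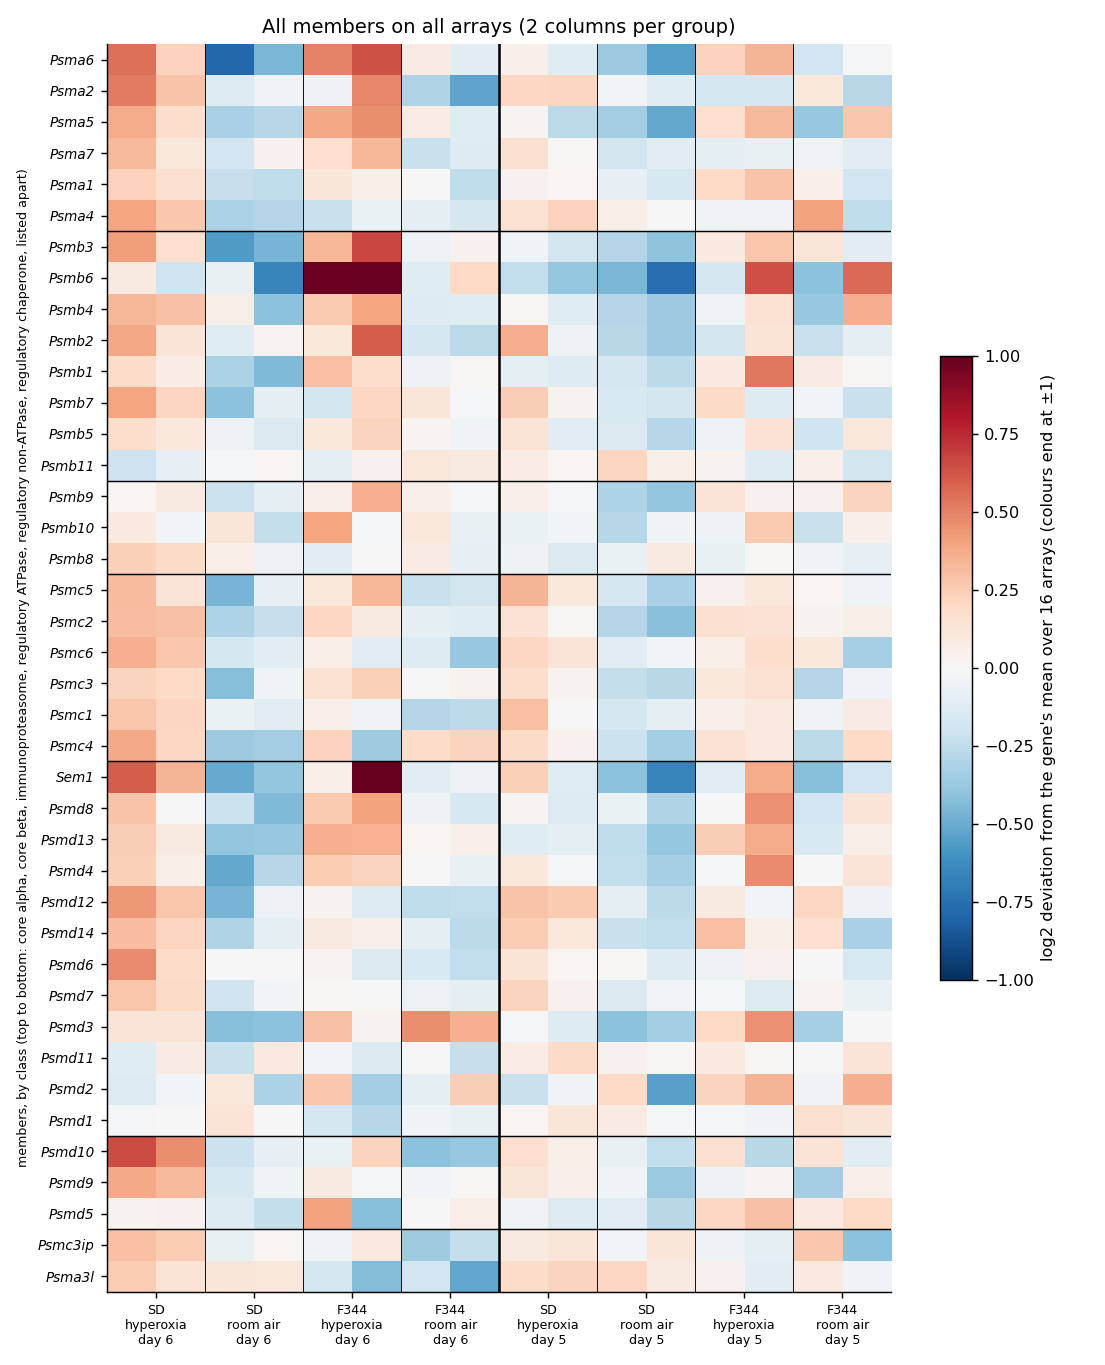
Deviation of each member (rows, by class) from its own mean over the 16 arrays (columns, 2 per group), in log2 units, red above and blue below that mean. On day 6 the hyperoxia columns are red and the SD room air columns blue for most core and regulatory members.

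The count of day 6 calls rested on particular arrays, each left out in turn. It fell most without the first SD hyperoxia array of day 6, and also without the first SD room air array of that day. Without either F344 room air array of day 6 it fell too, as it did without the second F344 hyperoxia array, the one that stood apart. For most such fits the count over all genes is not given here or below. Changes in these counts cannot be read as particular to the members. The members' median stayed between 0.30 and 0.35 through all 16 such fits. Psma6 and Psmb3 were called in each of the 16, with adjusted p values of at most 0.0268 and 0.033.

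Among the alpha subunits of the core, 5 of 6 were called higher on day 6 over both strains, with a class median of 0.44. Psma6 changed most. Its log2 level was 10.53 and 10.21 in SD hyperoxia retinae of day 6, against 9.19 and 9.52 in SD room air retinae of day 6, and 10.47 and 10.61 in F344 hyperoxia retinae of day 6, against 10.06 and 9.86 in F344 room air retinae of day 6. The arrays did not overlap in either strain, and the mean rise over strains was 0.80 ± 0.10 (SE, adjusted p = 0.00216). A second, dimmer Psma6 probe set, with a mean of 4.84, gave 0.25 over both strains (limma, adjusted p = 0.162). Psma2 reached 9.25 and 9.80 in F344 hyperoxia retinae of day 6, against 9.01 and 8.79 in F344 room air retinae of day 6, a gap of 0.63 ± 0.17 (adjusted p = 0.0684), and its rise over both strains was 0.56 ± 0.12 (SE, adjusted p = 0.0147). Psma5 rose by 0.51 ± 0.12 (SE, adjusted p = 0.0231), Psma7 by 0.36 ± 0.08 (SE, adjusted p = 0.0219) and Psma1 by 0.33 ± 0.08 (SE, adjusted p = 0.0312). Psma4 was the exception, with a change of 0.64 in SD (adjusted p = 0.0427) and -0.01 in F344 (adjusted p = 0.982).

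Of the 8 beta subunits, 4 were called higher over both strains on day 6, with a class median of 0.41. Psmb3, a structural subunit of the beta ring, had a level of 7.83 and 7.58 in SD hyperoxia retinae of day 6, against 6.85 and 6.94 in SD room air retinae of day 6. In F344 it was 7.74 and 8.08 in hyperoxia and 7.35 and 7.46 in room air, so that all 4 hyperoxia arrays of day 6 exceeded all 4 room air arrays. The rise over both strains was 0.66 ± 0.10 (SE, adjusted p = 0.00325). The other called members were Psmb1, with 0.38 ± 0.09 (SE, adjusted p = 0.024), Psmb2, with 0.44 ± 0.12 (SE, adjusted p = 0.0435), and Psmb4, with 0.47 ± 0.14 (SE, adjusted p = 0.0493); of these Psmb2 and Psmb4 lost the call in 9 and 12 of the 16 fits without 1 array.

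None of the 3 catalytic subunits of the constitutive core was called on day 6. Over both strains their changes were positive, as were those of all 13 core genes apart from Psmb11, with a median of 0.44. Psmb6, of the caspase-like site, had the largest change in F344, with 8.35 and 8.36 in F344 hyperoxia retinae of day 6, against 7.25 and 7.57 in F344 room air retinae of day 6 (0.94 ± 0.29, adjusted p = 0.103). In SD its arrays overlapped, at 7.46 and 7.17 in hyperoxia and 7.30 and 6.71 in room air (0.31 ± 0.29, adjusted p = 0.624). A second Psmb6 probe set gave 0.60 over both strains (limma, adjusted p = 0.0865). Psmb7, of the trypsin-like site, had a change of 0.55 in SD and -0.04 in F344, and Psmb5, of the chymotrypsin-like site, of 0.24 and 0.17, with adjusted p values of 0.0699, 0.926, 0.351 and 0.522. Psmb11, a core subunit of the thymus cortex, lay between 3.96 and 4.39 over all arrays. It measured 3.96 and 4.09 in SD hyperoxia retinae of day 6, against 4.17 and 4.20 in SD room air retinae of day 6, and its log2 change in SD on day 6 was -0.16 (adjusted p = 0.533).

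The immunoproteasome genes were not called in any oxygen comparison. Their levels lay below the array medians of 5.452 to 5.524 on all arrays for Psmb8 and Psmb9 and on most for Psmb10, and the deposited values carry no detection flags. Psmb8, which replaces Psmb5, measured 4.73 and 4.68 in SD hyperoxia retinae of day 6, against 4.57 and 4.44 in SD room air retinae of day 6, and 4.39 and 4.5 in F344 hyperoxia retinae of day 6, against 4.58 and 4.41 in F344 room air retinae of day 6. Psmb9, which replaces Psmb6, measured 4.75 and 4.82 in SD hyperoxia retinae of day 6, against 4.52 and 4.63 in SD room air retinae of day 6, and 4.78 and 5.09 in F344 hyperoxia retinae of day 6, against 4.78 and 4.71 in F344 room air retinae of day 6. Psmb10, which replaces Psmb7, measured 5.30 and 5.18 in SD hyperoxia retinae of day 6, against 5.32 and 4.96 in SD room air retinae of day 6, and 5.60 and 5.19 in F344 hyperoxia retinae of day 6, against 5.32 and 5.13 in F344 room air retinae of day 6. The SD arrays separated by exposure for Psmb8 and Psmb9 and overlapped for Psmb10. Over both strains the changes were 0.08, 0.20 and 0.13, with a class median of 0.13 and a lowest adjusted p of 0.166. Whether this class differs from the others was not tested.

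On day 5 the hyperoxia levels of Psmb8 were 4.45 and 4.35 in SD and 4.42 and 4.51 in F344, against 4.43 and 4.59 in SD and 4.46 and 4.42 in F344 in room air. Those of Psmb10 were 5.14 and 5.17 in SD and 5.15 and 5.46 in F344, against 4.92 and 5.16 in SD and 4.98 and 5.25 in F344 in room air. Those of Psmb9 were 4.78 and 4.71 in SD and 4.86 and 4.77 in F344, against 4.42 and 4.34 in SD and 4.77 and 4.95 in F344 in room air. The Psmb9 arrays separated by exposure in SD, with a change of 0.36 (unadjusted p = 0.00833, adjusted p = 0.435), and overlapped in F344 (-0.04). Over all 16 arrays Psmb8 lay between 4.35 and 4.73 and Psmb10 between 4.92 and 5.60.

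Within the ATPase ring of the regulatory particle, 4 of 6 subunits were called higher over both strains on day 6, with a class median of 0.33. Psmc2 measured 9.80 and 9.79 in SD hyperoxia retinae of day 6, against 9.18 and 9.26 in SD room air retinae of day 6, and 9.70 and 9.58 in F344 hyperoxia retinae of day 6, against 9.40 and 9.38 in F344 room air retinae of day 6. No room air array reached a hyperoxia array, and the rise was 0.41 ± 0.07 (SE, adjusted p = 0.00825). Psmc5 rose by 0.46 ± 0.10 (SE, adjusted p = 0.0151), Psmc6 by 0.34 ± 0.10 (SE, adjusted p = 0.0495) and Psmc1 by 0.31 ± 0.08 (SE, adjusted p = 0.0343); the call of Psmc6 was kept in 2 of the 16 fits without 1 array. Psmc3 had a change of 0.31 (adjusted p = 0.0541).

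Psmc4 also differed in sign between the strains. It measured 9.32 and 9.15 in SD hyperoxia retinae of day 6, against 8.57 and 8.59 in SD room air retinae of day 6, and 9.17 and 8.58 in F344 hyperoxia retinae of day 6, against 9.12 and 9.16 in F344 room air retinae of day 6. The SD arrays did not overlap, while the F344 hyperoxia arrays lay on both sides of the room air pair. The oxygen effects of 0.65 in SD and -0.27 in F344 differed by 0.92 on the log2 scale, with adjusted p = 0.14 for that difference. A second Psmc4 probe set gave 0.45 in SD and -0.12 in F344.

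Among the 12 other subunits of the regulatory particle, 5 were called higher over both strains on day 6, and the class median was 0.29. Sem1, a small disordered lid subunit that also serves other complexes, had the largest change of all members over both strains. It measured 9.55 and 9.29 in SD hyperoxia retinae of day 6, against 8.44 and 8.55 in SD room air retinae of day 6, and 9.01 and 10.34 in F344 hyperoxia retinae of day 6, against 8.84 and 8.89 in F344 room air retinae of day 6. The second F344 hyperoxia array stood 1.33 above the first, and the rise of 0.87 ± 0.21 (SE, adjusted p = 0.0227) carried the widest error among the called members. Psmd13, a lid subunit, measured 9.01 and 8.86 in SD hyperoxia retinae of day 6, against 8.37 and 8.39 in SD room air retinae of day 6, and 9.12 and 9.12 in F344 hyperoxia retinae of day 6, against 8.79 and 8.82 in F344 room air retinae of day 6. Its 8 values of day 6 separated by exposure in each strain, with a rise of 0.43 ± 0.08 (SE, adjusted p = 0.00851).

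The remaining calls were Psmd8 and Psmd12, both of the lid scaffold, and Psmd4, a receptor for ubiquitin chains. Psmd8 rose by 0.45 ± 0.12 (SE, adjusted p = 0.0321), Psmd12 by 0.41 ± 0.10 (SE, adjusted p = 0.0248) and Psmd4 by 0.41 ± 0.10 (SE, adjusted p = 0.0274). Psmd14, the enzyme that cuts ubiquitin from substrates, had a change of 0.35 ± 0.11 (adjusted p = 0.0571), with all hyperoxia arrays of day 6 above the room air arrays of their strain. Psmd6 and Psmd7 had changes of 0.24 and 0.22.

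The 2 largest subunits, which form the scaffold of the base, and Psmd11 did not pass the test. Psmd1 measured 9.46 and 9.47 in SD hyperoxia retinae of day 6, against 9.61 and 9.48 in SD room air retinae of day 6, and 9.31 and 9.19 in F344 hyperoxia retinae of day 6, against 9.43 and 9.40 in F344 room air retinae of day 6. The hyperoxia arrays were the lower ones in both strains, with a mean change of -0.12 (adjusted p = 0.336), and Psmd1 was the 1 member with lower hyperoxia arrays in at least 3 of the 4 strain and day pairs. Psmd2 had a change of -0.05 ± 0.17 and Psmd11 one of 0.04 ± 0.09, with adjusted p values of 0.902 and 0.849.

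Psmd3, a lid subunit, had changes of opposite sign in the strains. It measured 8.21 and 8.21 in SD hyperoxia retinae of day 6, against 7.65 and 7.67 in SD room air retinae of day 6, and 8.38 and 8.12 in F344 hyperoxia retinae of day 6, against 8.54 and 8.44 in F344 room air retinae of day 6. The SD change was 0.55 ± 0.13 (SE, adjusted p = 0.0408) and the F344 change -0.24 ± 0.13 (SE, adjusted p = 0.364), and their difference of 0.79 had adjusted p = 0.105, the smallest among the members. Of the chaperones that help to assemble the regulatory particle, Psmd10, also known as gankyrin, measured 7.68 and 7.49 in SD hyperoxia retinae of day 6, against 6.81 and 6.95 in SD room air retinae of day 6, and 6.96 and 7.25 in F344 hyperoxia retinae of day 6, against 6.62 and 6.65 in F344 room air retinae of day 6. The arrays separated by exposure in both strains, and the rise was 0.59 ± 0.11 (SE, adjusted p = 0.00851). Psmd9 had a change of 0.25 (adjusted p = 0.127) and Psmd5 one of 0.09 (adjusted p = 0.735).

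The 2 prefix matches given apart, Psmc3ip and Psma3l, did not change past the threshold with oxygen over both strains on day 6. Psmc3ip, a partner in homologous recombination, had a change of 0.32 (adjusted p = 0.105) and Psma3l, whose symbol the reference now lists under Psma3, one of 0.06 (adjusted p = 0.725). The probe set shared by Psma3 and Psma3l had a change of -0.05 (adjusted p = 0.797).

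**Figure D2:**
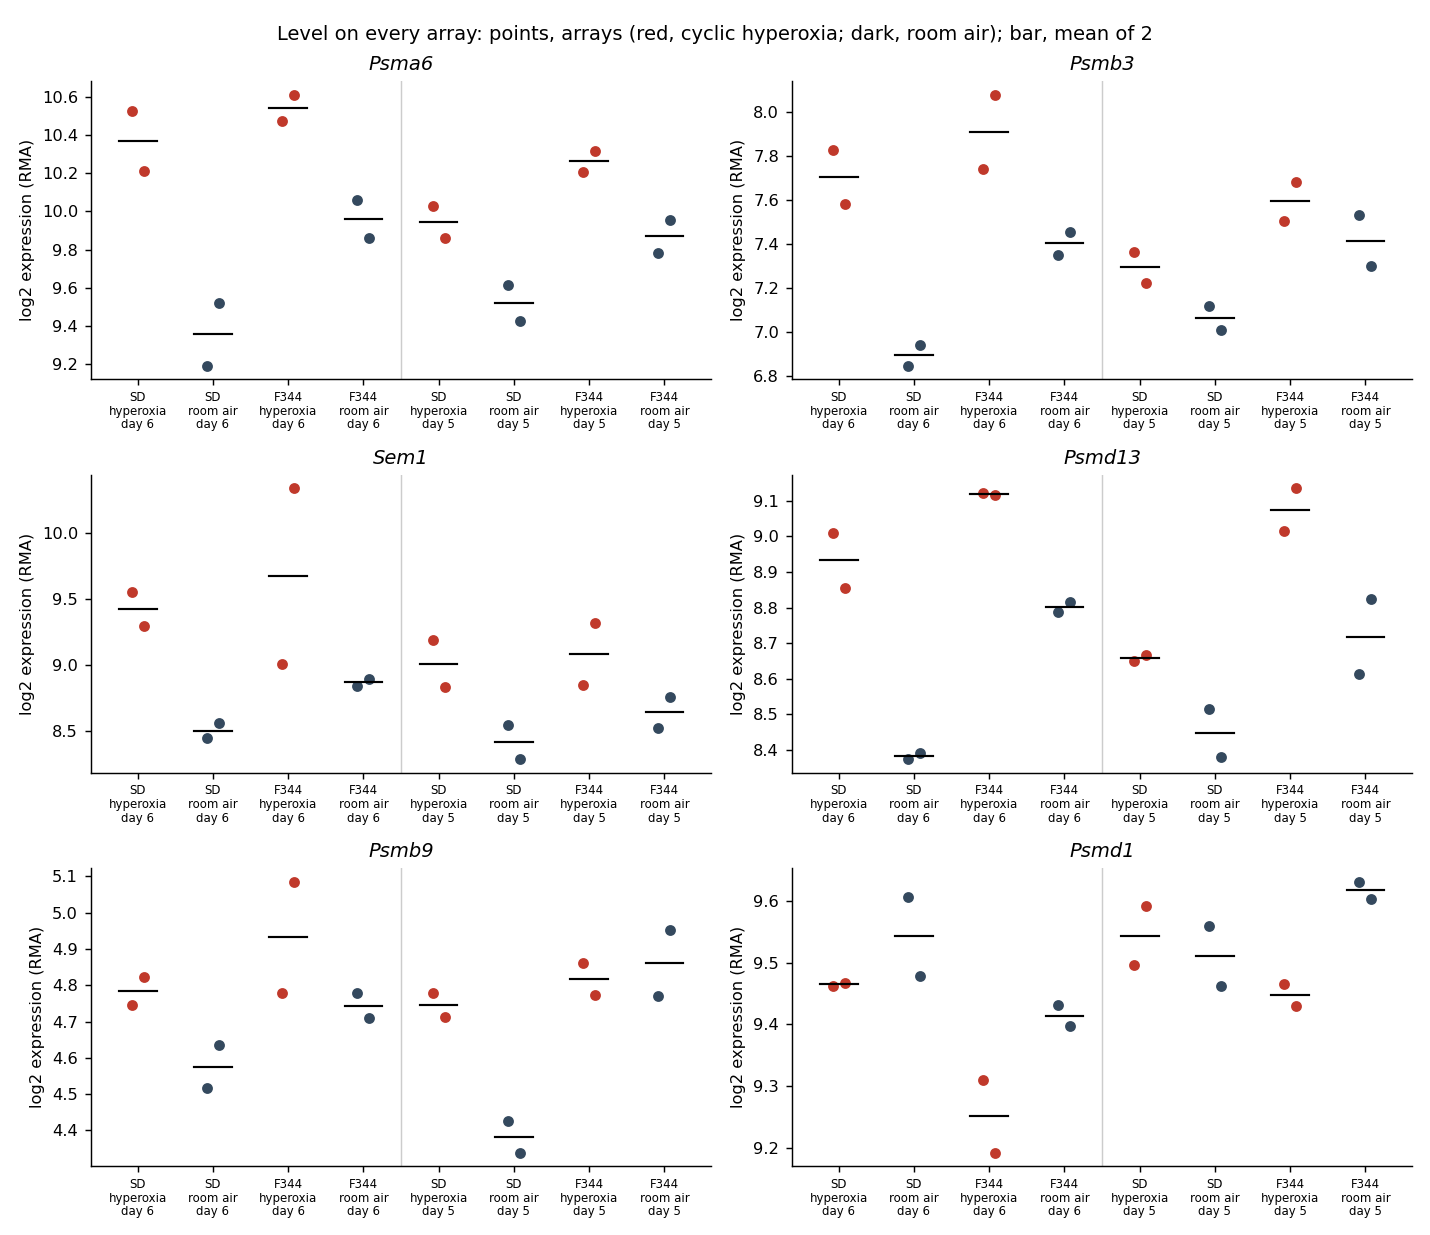
Log2 expression of 6 members on every array, by group; points are arrays, bars the mean of 2, and each panel has its own axis. Psma6, Psmb3, Sem1 and Psmd13 have their lowest points among the SD room air arrays, as does Psmb9, and Psmd1 has its lowest points among the F344 hyperoxia arrays of day 6.

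Promoter windows of 4 members are shown for the range of responses: a core gene called in all 16 fits (Psmb3), a called ATPase (Psmc2), an immunoproteasome gene (Psmb10) and a member with a negative change (Psmd1). The windows run from 250 bases before to 50 after a transcript start in the RefSeq annotation of GRCr8, which for these 4 genes is the gene's outermost start, 5′ to 3′ on the gene's strand. Capitals mark matches, on either strand, to TGACNNNGC or TGAGNNNGC, cores of the antioxidant response element that NRF transcription factors bind, to TTCNNNGAA, the GAS motif of STAT factors, to an interferon response element core (TTTC, any 2 bases, TTTC), and to CCAAT, the box of NF-Y.
Psmb3 (chr10:83193537-83193836, plus strand): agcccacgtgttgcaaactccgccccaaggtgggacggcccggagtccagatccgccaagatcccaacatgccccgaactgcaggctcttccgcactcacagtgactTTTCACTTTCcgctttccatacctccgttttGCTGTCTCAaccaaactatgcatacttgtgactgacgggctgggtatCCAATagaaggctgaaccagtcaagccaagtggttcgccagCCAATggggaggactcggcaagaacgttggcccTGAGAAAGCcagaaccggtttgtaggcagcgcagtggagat
Psmc2 (chr4:14162341-14162640, minus strand): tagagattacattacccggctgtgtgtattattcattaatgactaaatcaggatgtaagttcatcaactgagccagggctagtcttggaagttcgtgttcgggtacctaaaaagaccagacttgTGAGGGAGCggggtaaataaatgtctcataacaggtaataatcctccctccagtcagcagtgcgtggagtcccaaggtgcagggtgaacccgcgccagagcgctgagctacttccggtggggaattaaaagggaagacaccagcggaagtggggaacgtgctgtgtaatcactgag
Psmb10 (chr19:50743243-50743542, minus strand): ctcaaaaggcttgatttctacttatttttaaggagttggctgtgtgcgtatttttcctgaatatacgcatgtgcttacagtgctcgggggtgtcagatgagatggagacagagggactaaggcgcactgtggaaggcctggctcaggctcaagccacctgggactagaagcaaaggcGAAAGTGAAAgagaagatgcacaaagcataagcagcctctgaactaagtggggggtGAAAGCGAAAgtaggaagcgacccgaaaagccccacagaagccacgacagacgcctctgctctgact
Psmd1 (chr9:94157721-94158020, plus strand): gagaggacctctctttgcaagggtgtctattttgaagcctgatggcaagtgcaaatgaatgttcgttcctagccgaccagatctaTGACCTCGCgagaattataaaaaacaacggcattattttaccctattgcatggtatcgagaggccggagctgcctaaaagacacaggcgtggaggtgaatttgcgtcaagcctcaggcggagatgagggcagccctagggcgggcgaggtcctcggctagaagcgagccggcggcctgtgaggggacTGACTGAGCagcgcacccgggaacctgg
The window of Psmb3 held 3 kinds of match. Psmb10 held 1 kind, the interferon motif, and Psmc2 and Psmd1 each held 1 kind, the antioxidant core.

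Of the 40 members, 34 had a window among the 27457 promoters. The window lay at the gene's outermost start for 21 of them and inside it for 13, by 3 bases (Psma5) to 13671 bases (Psma6). The antioxidant core in either form lay in 14 of the 34 (41.2%, against 27.1% of all promoters) and the CCAAT box in 18 (52.9%, against 37.7%). The interferon motif lay in 5 (14.7%, against 3.77%), which were Psmb8, Psmb10, Psmb3, Psma4 and Psmd7, and the GAS motif in 4 (11.8%, against 8.68%). In 1 instance 2 matches of different motifs overlapped. These counts describe letters in the windows and were not tested.

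With each strain taken alone, only SD had called members on day 6. Several members called over both strains, Psma2, Psmb2 and Sem1 among them, were called in neither strain alone. In SD 9 members were called higher and 0 lower, where 2.23% of all genes were called higher, and the arrays lay apart, hyperoxia above room air, for 34 members (25.3% of all genes). The called members were Psma6 (1.01 ± 0.15 SE, adjusted p = 0.00758), Psmb3 (0.81 ± 0.14 SE, adjusted p = 0.0125), Psmc2 (0.57 ± 0.10 SE, adjusted p = 0.0141), Psmd13, Psmd10, Psmd12, Psmd3, Psma4 and Psmb1. Sem1 had a change of 0.92 ± 0.29 and adjusted p = 0.0966. Without either SD hyperoxia array of day 6, or without the first SD room air array, no member and no gene of the whole table was called in SD; without either F344 hyperoxia array of day 6 the count was 17.

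In F344 on day 6, 0 members were called (0.342% of all genes were called higher), while 15 had an unadjusted p under 0.05, all higher, against 6.83% of all genes. The members' median was 0.22, hyperoxia arrays lay above room air arrays for 27 members (20.7% of all genes), and 31 of 40 changes were positive. Array weights gave 0 calls among the members and 0 over all genes. Subtraction of array medians gave 1 among the members and 151 over all genes. The members' count also rose without either SD room air array or the first F344 hyperoxia array of day 6. Counts over all genes in those fits are not given beside it. The strain difference in the oxygen effect was not called for any member by limma (0.0559% of all genes); 5 members had an unadjusted p under 0.05, all with the larger rise in SD, against 8.04% of all genes. The median difference between the strains' effects was 0.21. It was 0.09 with array medians subtracted, where the median of all genes was -0.12.

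**Figure D3:**
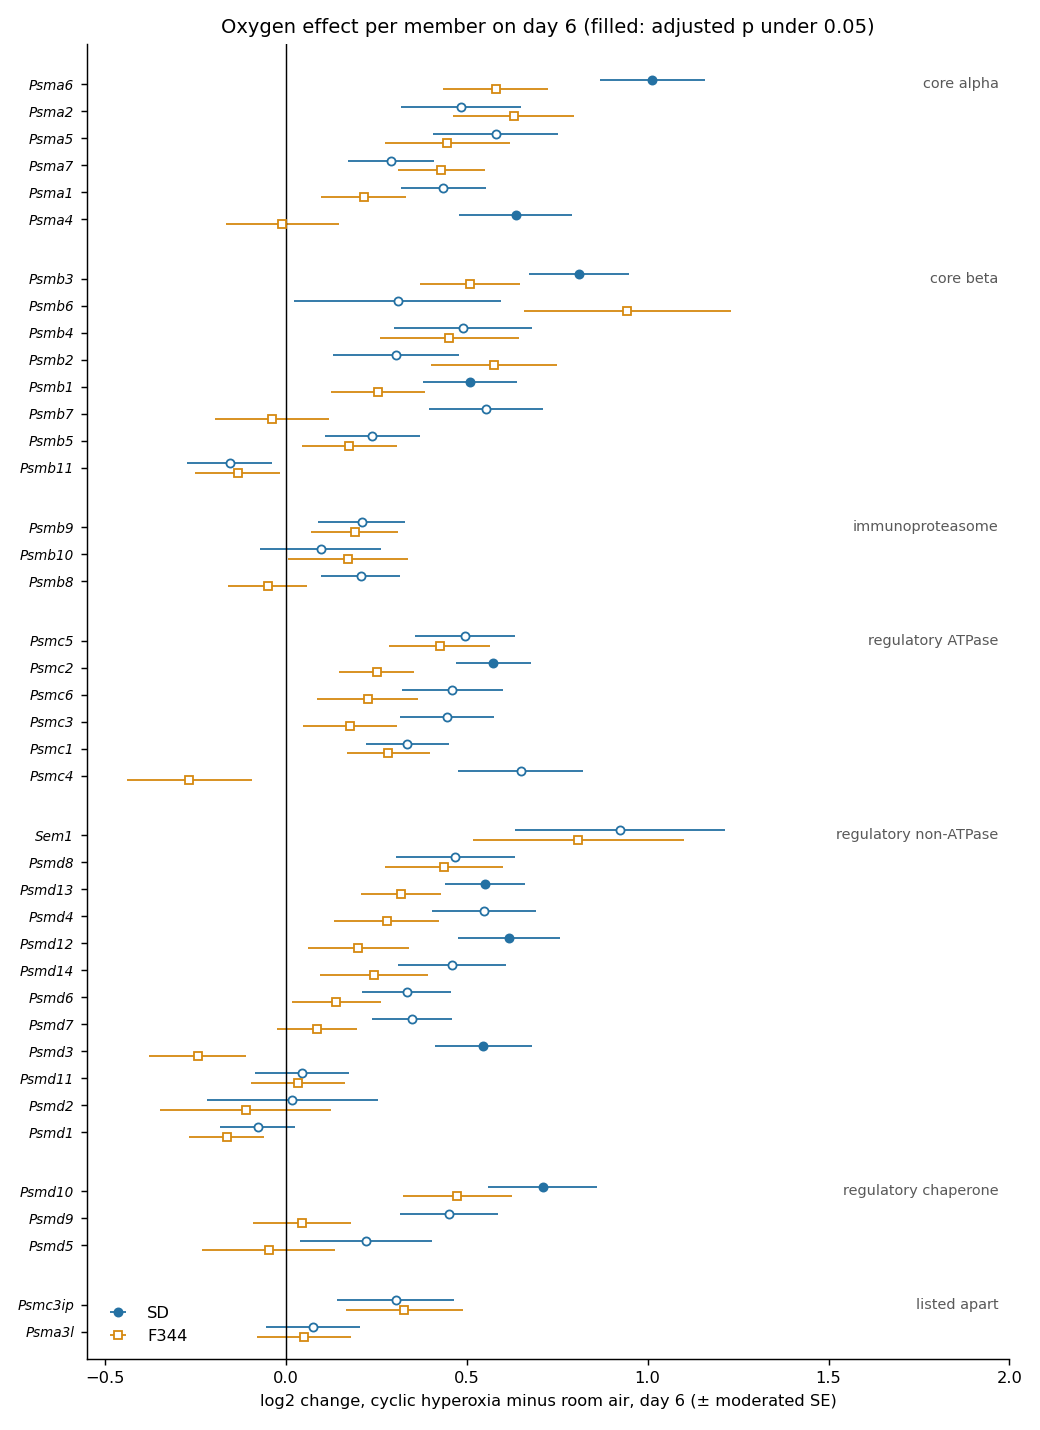
Log2 change of each member on day 6, cyclic hyperoxia minus room air, in SD (circles) and F344 (squares), with moderated standard errors; filled symbols passed an adjusted p under 0.05, which only SD circles did. Most points lie right of 0 in both strains, and Psmc4 and Psmd3 lie on opposite sides.

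On day 5 most members again had positive changes, and no member was called. In SD the median was 0.25 with 38 of 40 changes positive, and 31 members had hyperoxia arrays above both room air arrays, against 24.6% of all genes. No gene of the table was called higher in SD on day 5 (0% of all genes), and 13 members had an unadjusted p under 0.05, against 4.66% of all genes. Sem1 measured 9.19 and 8.83 in SD hyperoxia retinae of day 5, against 8.54 and 8.28 in SD room air retinae of day 5 (0.60 ± 0.29). Psmb2 measured 10.12 and 9.70 in SD hyperoxia retinae of day 5, against 9.47 and 9.39 in SD room air retinae of day 5 (0.48 ± 0.17). In both genes the arrays did not overlap, though the adjusted p values were 0.567 and 0.453. Psmb11 measured 4.25 and 4.19 in SD hyperoxia retinae of day 5, against 4.39 and 4.23 in SD room air retinae of day 5. Psmb11 and Psmb8 had the only negative changes, of -0.09 and -0.11.

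In F344 on day 5 the members' median was 0.11, with 30 of 40 changes positive and 0 members called (0% of all genes called higher, 0.126% lower). An unadjusted p under 0.05 was reached by 5, all higher, against 4.12% of all genes. Psmd3 had the largest change, with 8.28 and 8.54 in F344 hyperoxia retinae of day 5, against 7.75 and 8.08 in F344 room air retinae of day 5 (0.49 ± 0.13, adjusted p = 0.29). Sem1 followed, with 8.84 and 9.32 in F344 hyperoxia retinae of day 5, against 8.52 and 8.76 in F344 room air retinae of day 5 (0.44 ± 0.29). At the low end Psmd1 measured 9.47 and 9.43 in F344 hyperoxia retinae of day 5, against 9.63 and 9.60 in F344 room air retinae of day 5 (-0.17 ± 0.10), and Psma4 10.02 and 10.03 in F344 hyperoxia retinae of day 5, against 10.46 and 9.81 in F344 room air retinae of day 5 (-0.11 ± 0.16). The Psma4 room air arrays lay on both sides of the hyperoxia pair, and Psmd1 was again lower in hyperoxia on both arrays.

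Averaged over both strains on day 5, the median was 0.19, no member was called (0% of all genes called higher), and 15 had an unadjusted p under 0.05, all higher, against 5.44% of all genes. Hyperoxia arrays exceeded room air arrays in all 4 strain and day pairs for 8 members, Psma1, Psma6, Psmb1, Psmc2, Psmc3, Psmc5, Psmd13 and Sem1, and in at least 3 of the pairs for 25. The shares among all genes were 1.15% and 8.26%. Lower hyperoxia arrays in all 4 pairs were found for 0 members, against 0.977% of all genes, and in at least 3 for Psmd1, against 7.85%. The difference of the oxygen effect between the days had a median of 0.13 over the members (day 6 minus day 5) and was called for none by limma (0.182% of all genes); 4 members had an unadjusted p under 0.05, all with the larger rise on day 6, against 4.06% of all genes. Age and oxygen phase cannot be told apart in this difference between the days. The strain difference of the day 5 effect was called for none either, with 3 members at an unadjusted p under 0.05 (2.99% of all genes).

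**Figure D4:**
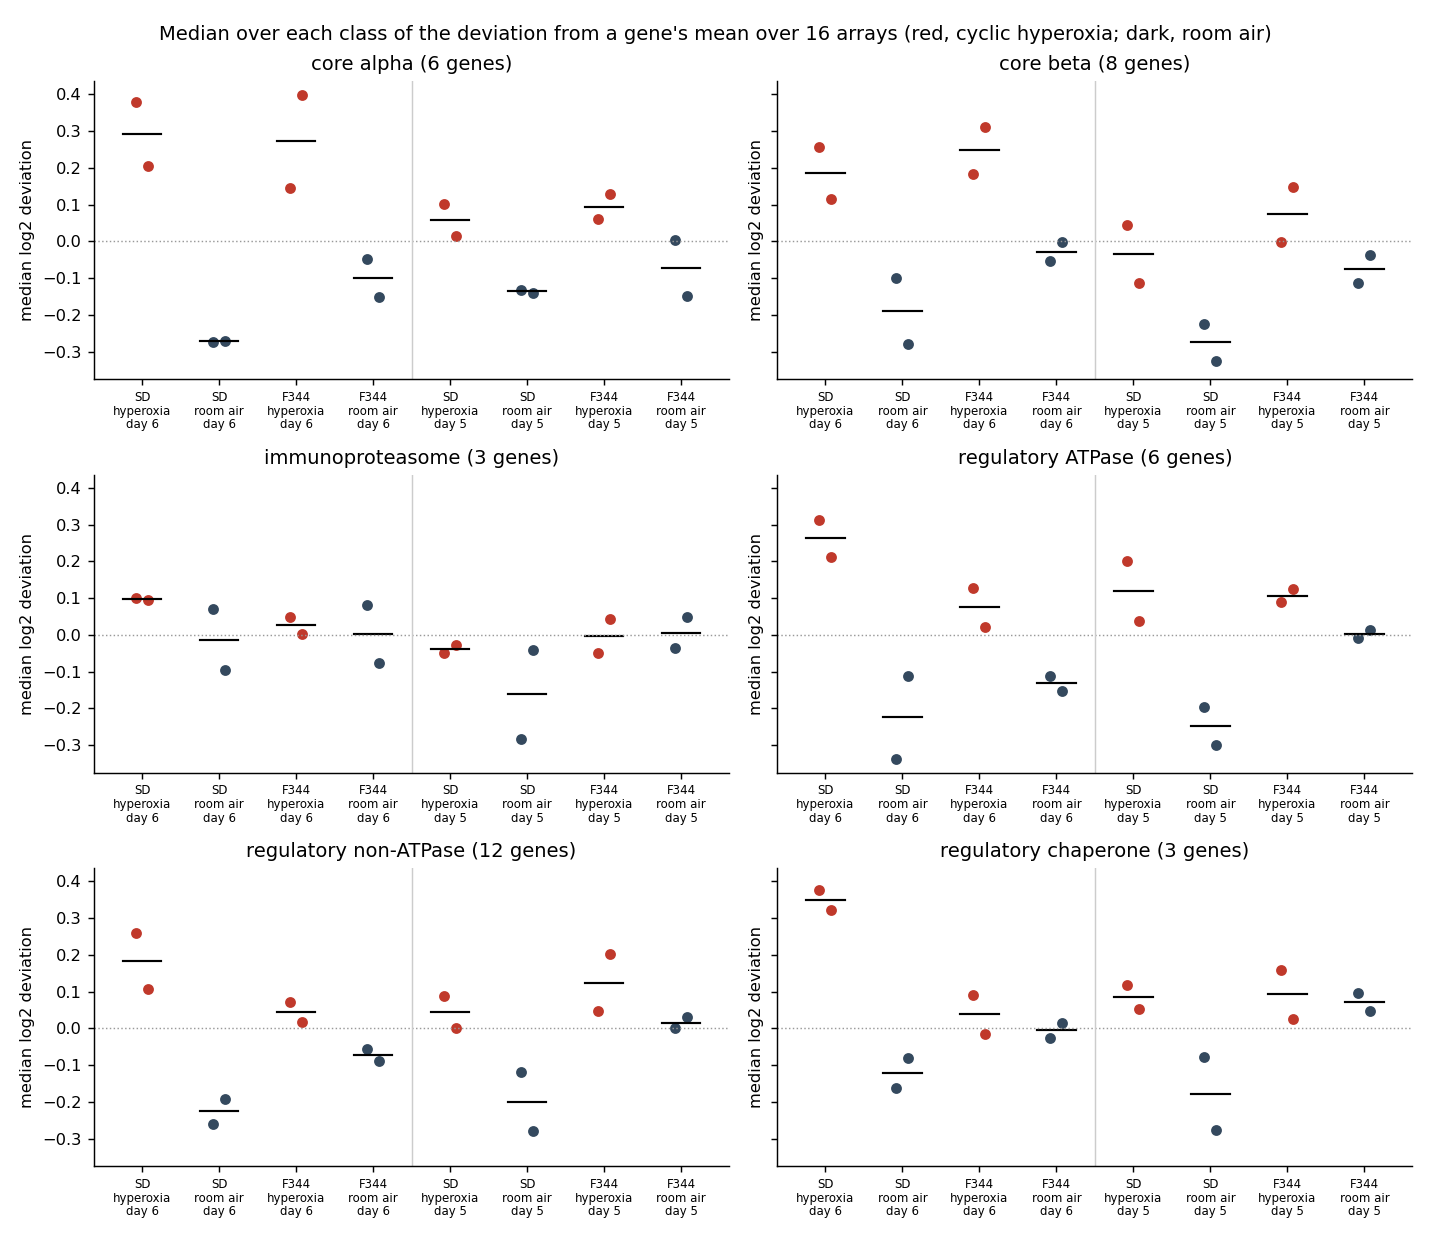
Median over each class of the members' log2 deviation from their own mean over 16 arrays, for every array by group; points are arrays, bars the mean of 2. On day 6 the core alpha points of SD lie at 0.38 and 0.21 in hyperoxia and at -0.27 and -0.27 in room air, and the immunoproteasome points stay within 0.10 of 0 on all arrays but the first of SD room air on day 5.

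The strains differed in room air. Over both days, 8 members were called lower in SD than in F344 and 0 higher, where 5.33% of all genes were called lower and 4.02% higher, and the members' median was -0.13 against 0.01 over all genes. Psmd3 had the smallest p. It measured 7.65 and 7.67 in SD against 8.54 and 8.44 in F344 on day 6, and 7.67 and 7.74 in SD against 7.75 and 8.08 in F344 on day 5. All SD arrays were lower than the F344 arrays of their day, with a difference of -0.52 ± 0.09 (SE, adjusted p = 0.00322), and the call held in each of the 16 fits without 1 array. Psma6 was 9.19 and 9.52 in SD against 10.06 and 9.86 in F344 on day 6, and 9.61 and 9.43 in SD against 9.79 and 9.96 in F344 on day 5. Psmb3 was 6.85 and 6.94 in SD against 7.35 and 7.46 in F344 on day 6, and 7.12 and 7.01 in SD against 7.53 and 7.30 in F344 on day 5. Neither gene's strains overlapped on either day, and the differences were -0.48 ± 0.10 (SE, adjusted p = 0.00952) and -0.43 ± 0.10 (SE, adjusted p = 0.0127). The second, dimmer Psma6 probe set gave -0.09 (limma, adjusted p = 0.683). With the mean of both probe sets the Psma6 call was lost (adjusted p = 0.0741).

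The other calls in room air were Psmd13 (-0.34), Psmd4 (-0.36), Psmb9 (-0.32), Psmb1 (-0.31) and Psmc2 (-0.28). Psmb6 had a larger difference of -0.55 ± 0.20 but scattered arrays (adjusted p = 0.111), at 7.30 and 6.71 in SD against 7.25 and 7.57 in F344 on day 6, and 6.92 and 6.61 in SD against 6.96 and 7.94 in F344 on day 5. The strains overlapped on day 6 only. The highest difference was that of Psma3l (0.30, adjusted p = 0.0536), at 10.66 and 10.65 in SD against 10.35 and 10.02 in F344 on day 6, and 10.75 and 10.63 in SD against 10.63 and 10.49 in F344 on day 5. Psmc3ip followed (0.19, adjusted p = 0.339), at 6.85 and 6.94 in SD against 6.56 and 6.68 in F344 on day 6, and 6.89 and 7.04 in SD against 7.19 and 6.51 in F344 on day 5. The SD room air arrays of day 6 enter both this comparison and that of oxygen in SD on day 6. The count fell without the second room air array of either strain on day 5. It also fell without the second F344 room air array of day 6 or the first of either strain on that day. Falls over all genes in these fits are not given beside it.

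Psmb9 lies in the MHC class II region of chromosome 20, beside genes of the peptide transporter: in GRCr8 the order is Tap2 (4638257 to 4652296), Psmb8 (4654068 to 4657049), Tap1 (4658171 to 4668543) and Psmb9 (4668952 to 4674421). In room air Psmb9 measured 4.52 and 4.63 in SD against 4.78 and 4.71 in F344 on day 6, and 4.42 and 4.34 in SD against 4.77 and 4.95 in F344 on day 5 (-0.32 ± 0.09 SE, adjusted p = 0.0266). All SD arrays were lower. The Psmb9 call was lost with array medians subtracted (limma, adjusted p = 0.0853) and without some single arrays. In hyperoxia the strains overlapped, at 4.75 and 4.82 in SD against 4.78 and 5.09 in F344 on day 6, and 4.78 and 4.71 in SD against 4.86 and 4.77 in F344 on day 5 (-0.11, adjusted p = 0.487). Psmb8, between the transporter genes, differed by 0.04 in room air (adjusted p = 0.824). Tap2 was lower in SD, with -1.78 ± 0.09 (SE, adjusted p = 7.51e-09) in room air, and Tap1 had -0.64 ± 0.08 (SE, adjusted p = 0.000211).

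In hyperoxia the members' median difference was 0.04, with 21 positive and 19 negative values. Psmb6 was lower in SD, at 7.46 and 7.17 in SD against 8.35 and 8.36 in F344 on day 6 and 7.13 and 6.99 in SD against 7.20 and 8.02 in F344 on day 5 (-0.80 ± 0.20 SE, adjusted p = 0.024). The second Psmb6 probe set gave -0.27 (adjusted p = 0.477), and the call was lost with the mean of both probe sets (adjusted p = 0.0863). Psmd13 was lower too, at 9.01 and 8.86 in SD against 9.12 and 9.12 in F344 on day 6 and 8.65 and 8.67 in SD against 9.02 and 9.14 in F344 on day 5 (-0.30 ± 0.08 SE, adjusted p = 0.0263). These were the 2 members called lower (3.78% of all genes). Psma3l was called higher (5.18% of all genes), at 10.79 and 10.68 in SD against 10.36 and 10.11 in F344 on day 6 and 10.72 and 10.76 in SD against 10.58 and 10.42 in F344 on day 5 (0.37 ± 0.09 SE, adjusted p = 0.0213). All SD arrays of Psma3l lay above the F344 arrays of their day. Psma4 had a difference of 0.35 (adjusted p = 0.0598), at 10.45 and 10.33 in SD against 9.84 and 9.996 in F344 on day 6, and 10.21 and 10.29 in SD against 10.02 and 10.03 in F344 on day 5. The count of calls fell without the second F344 hyperoxia array of day 5 or any SD hyperoxia array of either day. It rose without either F344 hyperoxia array of day 6, the first F344 one of day 5 or either F344 room air array of day 5. Counts over all genes in these fits are not given beside it.

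**Figure D5:**
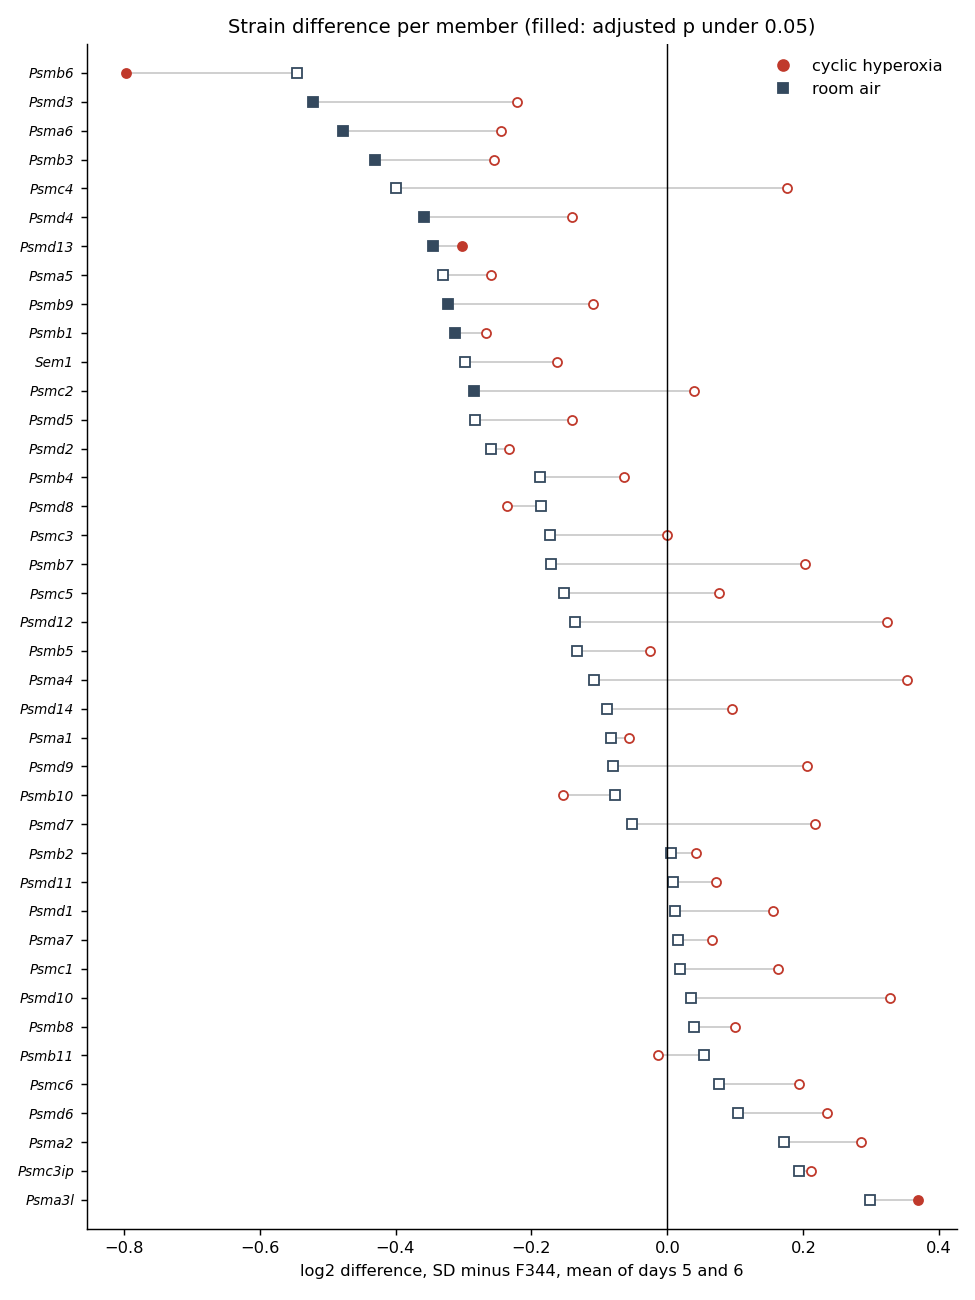
Log2 difference of each member, SD minus F344, mean of both days, in cyclic hyperoxia (circles) and room air (squares), sorted by the room air value; filled symbols passed an adjusted p under 0.05. Most squares lie left of 0, and for most members the circle lies to the right of its square.

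Few members were called between the days. In hyperoxia, age and oxygen phase cannot be told apart in this comparison. In room air (day 6 minus day 5) 0 members were called by limma (3% of all genes), with 3 at an unadjusted p under 0.05 (15.2% of all genes), and the median was -0.03. Psmd3 (0.26) and Sem1 (0.16) had the highest differences, and Psma4 (-0.27) and Psmd12 (-0.21) the lowest. Psma4 measured 9.75 and 9.77 in SD and 9.96 and 9.89 in F344 on day 6, against 10.12 and 10.06 in SD and 10.46 and 9.81 in F344 on day 5. Psmd12 measured 8.98 and 9.39 in SD and 9.19 and 9.20 in F344 on day 6, against 9.35 and 9.19 in SD and 9.65 and 9.40 in F344 on day 5. In hyperoxia the median was 0.08, and Psmb3 was called higher on day 6 (0.36 ± 0.10 SE, adjusted p = 0.0436), where 2.1% of all genes were. Its hyperoxia levels were 7.83 and 7.58 in SD and 7.74 and 8.08 in F344 on day 6, against 7.36 and 7.22 in SD and 7.5 and 7.68 in F344 on day 5. The days did not overlap within a strain. The call was lost in 10 of the 16 fits without 1 array, each array of the day 5 hyperoxia groups among them, and 6 members were called without the first F344 hyperoxia array of day 6. Sem1 and Psmb6 had differences of 0.50 and 0.50, and Psmd11 and Psma3l of -0.15 and -0.14, none of them called. Psmd11 measured 8.78 and 8.99 in SD and 8.88 and 8.76 in F344 on day 6, against 8.98 and 9.09 in SD and 9.0 and 8.92 in F344 on day 5.

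Genes that act with the proteasome were taken as lists on day 6 over both strains, where 2.73% of all genes were called lower and 4.01% higher. Of 4 measured assembly factors of the core, 1 was called higher: Pomp, which matures the core particle, with 0.66 ± 0.14 (SE, adjusted p = 0.0149). Psmg4 had a change of 0.32 (adjusted p = 0.291). Of 7 activators and associated factors, 1 was called higher and 1 lower. Psme2, a subunit of the activator that interferon induces, rose by 0.31 ± 0.08 (SE, adjusted p = 0.0383), and Psme4, a nuclear activator, had a change of -0.40 ± 0.11 (SE, adjusted p = 0.0434). Of 11 regulators of subunit transcription, 2 were called lower: Mafg, a partner of NRF factors, with -0.40 (adjusted p = 0.0175), and Ddi2, the protease that releases active Nfe2l1, with -0.27 (adjusted p = 0.0377). Nfe2l1 itself had a change of -0.07 (adjusted p = 0.695), which speaks of its transcript and not of its processed protein.

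Of 7 measured genes for ubiquitin supply and shuttling, 0 were called by limma on day 6, with 1 at an unadjusted p under 0.05, and all 7 had negative changes; the largest were Uba1 (-0.36) and Uba6 (-0.31). Of 19 genes of antigen presentation and interferon response, 0 were called and 0 had an unadjusted p under 0.05, and the list's median was -0.02. The largest changes were those of B2m (0.24) and Stat2 (-0.21).

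Markers of cell types were measured beside these changes. On day 6 over both strains, 3 of 6 endothelial markers (Tek, Tie1 and Emcn) were called lower, against 2.73% of all genes. The log2 of the endothelial markers' summed level was 7.44 to 7.91 on the hyperoxia arrays and 7.79 to 7.93 on the room air arrays. In SD alone these sums did not overlap, at 7.44 in hyperoxia and 7.89 to 7.93 in room air, while in F344 they overlapped. Of 14 microglial markers 2 were called higher (Aif1 and C1qa), against 4.01% of all genes. The summed levels of this list were 9.29 to 9.60 in hyperoxia and 9.28 to 9.46 in room air. In SD alone they did not overlap, at 9.53 to 9.60 in hyperoxia and 9.37 to 9.46 in room air, while in F344 they overlapped. Of 15 markers of retinal neurons and glia, Nrl was called higher and Grm6 lower, with summed levels of 13.56 to 13.82 in hyperoxia and 13.83 to 13.91 in room air. Of 5 erythroid markers 0 were called, and their sums were 8.25 to 8.42 in hyperoxia and 7.87 to 8.23 in room air. With both strains pooled, the retinal and erythroid sums did not overlap between the exposures. The retinal ones were lower and the erythroid ones higher in hyperoxia. Their nearest values were close, at 13.82 and 13.83 for the retinal sums and 8.25 and 8.23 for the erythroid ones. Skeletal muscle had 5 markers, with 0 called. Its SD sums were 7.61 to 7.69 in hyperoxia and 7.5 to 7.53 in room air. Its F344 sums were 7.73 to 7.74 in hyperoxia and 7.55 to 7.61 in room air. The muscle sums were thus higher in hyperoxia within each strain, as they also were on day 5. Of 7 markers of pigment epithelium 0 were called, with sums of 9.96 to 10.33 in hyperoxia and 9.37 to 10.15 in room air. For 7 cell cycle genes 0 were called, with sums of 9.91 to 10.20 in hyperoxia and 9.83 to 10.54 in room air. The cell cycle sums overlapped in SD but not in F344, at 10.1 to 10.2 in hyperoxia and 10.4 to 10.52 in room air. The part of all these markers in the proteasome result was not tested. In whole retina fewer cells of a type and less RNA per cell cannot be told apart.

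Genes of other large complexes were called higher on day 6 too, where 4.01% of all genes were called higher over both strains. Over both strains, 35 of 71 cytosolic ribosomal protein genes were called higher with a median of 0.38, 24 of 64 mitochondrial ribosomal protein genes with 0.27, and 29 of 70 respiratory chain genes with 0.34, beside the 19 of 40 proteasome members with 0.32. In room air 25 of 71 cytosolic ribosomal genes were called lower in SD than in F344, with a median of -0.26, against 5.33% of all genes called lower. Whether these shares differ from that of the proteasome was not tested.

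The members' changes were also set beside genes of like signal and length. In the brightest of 5 equal bins of all genes, 8.06% were called higher over both strains, and 16 of the 28 members in that bin were. By genomic span, the median change of all genes was 0.04 in the shortest bin and -0.13 in the longest; the members' medians in the same bins were 0.22 and 0.26, with 6 and 3 members.

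Across the 16 arrays the members tended to move together, as a description over arrays that share groups and normalization. The median Pearson r was 0.60 over 78 pairs of core genes, 0.43 over 153 pairs of regulatory genes and 0.51 over 234 pairs of a core with a regulatory gene. Between the immunoproteasome genes and the core it was 0.37 over 39 pairs, with 35 of those pairs positive.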

How the data were processed

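Retinal RNA was measured on 16 one-colour Affymetrix gene arrays, 2 for each of 8 groups. The deposited values are log2 expression per probe set, made by the authors with RMA in Partek 6.4, per the submitters' processing notes; scanner files and detection flags were not used here. Of 27342 probe sets, 15097 carried 1 annotated symbol, 323 several, and 11922 none; 15067 of the first were updated by Entrez id to RefSeq GRCr8. The brightest probe set stood for each of 14324 genes.

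limma 3.58.1 in R 4.3.3 fitted a mean per group to all 16 arrays, with 13 contrasts and Benjamini-Hochberg adjustment over all 14324 genes; a call is an adjusted p under 0.05, and the error after a log2 change is the moderated standard error with n = 2 arrays in each group. The fit was first tested on simulated data. Named with array values were the immunoproteasome genes, the called members (up to the 3 with the smallest p in a contrast), and the 2 largest rises and falls of each oxygen, strain and day comparison; of each pathway list the 2 largest changes and the calls were named. The members and lists were chosen with earlier results of these data known. The alternatives were other priors, filters, scalings, probe set rules, array weights, a replicate block, the compared groups alone, and each array left out. Promoter windows, 1 a gene, came from RefSeq (GRCr8). Figures were drawn with matplotlib 3.10.9.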

Additional observations from a re-analysis of the deposited data

Results flagged for a closer look

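Psmd3 was flagged because its oxygen effect on day 6 had the opposite sign in the strains on all arrays. The effect was 0.55 in SD and -0.24 in F344, a difference of 0.79 on the log2 scale, for which limma's interaction term gave an adjusted p of 0.105.

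Psmd3 was flagged again because its oxygen effect in F344 had opposite signs on the 2 days. It was -0.24 on day 6 and 0.49 on day 5, a difference of -0.73 that was not tested for F344 on its own. Age and oxygen phase cannot be told apart in this difference.

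The second probe set of Psmc4, outside the member rule, was flagged because it passed the threshold in room air. SD minus F344 was -0.33 there (limma, adjusted p = 0.0377), and the probe set taken for the gene gave -0.40 (adjusted p = 0.0512).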

How the results depend on the processing

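Of 234 counts and medians recomputed under the other settings, apart from leaving out arrays, 220 stayed and 14 moved. To stay meant within 1.5 times the count or within 0.0595, the replicate SD of the members' median. A change of sign within that limit was not marked. Array weights gave 16 calls for oxygen in SD on day 6 (9 as reported) and 10 over both strains (19 as reported), and the compared groups alone gave 12 for both strains. With array medians subtracted, F344 on day 6 had 1 call and a median of 0.3206, the strain difference had 5 calls in room air and 5 in hyperoxia, and the median difference between the strains' day 6 oxygen effects was 0.0855; quantile normalization again gave 0.1231. That subtraction moved the median of all genes to 0.0961 in F344 on day 6. It gave 151 calls over all genes there, and 1491 and 1434 for the strain difference in room air and hyperoxia. The day difference in hyperoxia had 0 calls with every probe set on its own, the intensity-dependent prior, array weights, the replicate block and the compared groups alone. Over all probe sets the first of these settings gave 816 calls. Over all genes the others gave 655, 610, 657 and 604, in that order. The causes were not tested.

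Without 1 array, the members called and their median ranged from 0 to 17 and 0.3921 to 0.4916 for SD on day 6, 0 to 10 and 0.1780 to 0.2729 for F344 on day 6, and 2 to 24 and 0.3039 to 0.3458 for both strains on day 6. On day 5 no call appeared, with medians of 0.1984 to 0.3206 in SD, 0.0438 to 0.1401 in F344 and 0.1435 to 0.2254 over both. The ranges were 2 to 12 and -0.1728 to -0.0896 for the strain difference in room air, 0 to 6 and -0.0110 to 0.0579 in hyperoxia, 0 to 2 and -0.0669 to -0.0116 for the day difference in room air, and 0 to 6 and 0.0616 to 0.1277 in hyperoxia. For the oxygen effect's difference between strains they were 0 to 2 and 0.1372 to 0.2600 on day 6, and 0 and 0.0658 to 0.1849 on day 5, and for its day difference 0 and 0.0923 to 0.1683. An array left alone in its group was assumed to vary like the other groups.

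The replicate numbers did not pair the samples: deviations of same-numbered hyperoxia and room air arrays correlated at -0.012 (SD) and -0.219 (F344) on day 6 and at -0.17 (SD) and 0.193 (F344) on day 5. The replicate block gave 7 calls in SD on day 6 and 18 over both strains. It gave 8 and 3 for the strain differences in room air and hyperoxia, and 0 for the day difference in hyperoxia. The same fit called 355, 904, 1286, 1256 and 657 of all genes in these comparisons, in that order. Over all genes, the calls for oxygen in SD on day 6 were 400, with 800 under array weights and 233 with the compared groups alone; over both strains they were 966, with 494 and 396. Dim members and the pair of arrays in each group limit what these arrays resolve, and pools hide the spread between rats.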
